A study of Mus musculus with 20 samples.

Results

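The comparison described here set 21h10, a computationally designed protein that mimics interleukin-21, against native murine IL-21 (mIL-21) at the same concentration of 1 nM. It rests on 4 of the 20 RNA-seq libraries of the series, 2 duplicates treated with 21h10 and 2 treated with mIL-21, chosen by their labels and fitted together with all 10 libraries of experiment 1. All 10 came from wild-type C57BL/6J CD8+ T cells isolated by negative selection from the spleens of mice aged 6 to 8 weeks. Every culture, the unstimulated one included, was first activated with plate-bound anti-CD3 (2 µg/mL) and soluble anti-CD28 (1 µg/mL) for 48 h and rested overnight. The cells then received mIL-21 or 21h10 at 1 nM or 100 pM for 24 h, or no cytokine, in duplicate. The labels call the libraries of a group duplicates and name neither mice nor cultures. The study states, for its RNA-seq as a whole, that replicates came from separate tissue preparations, but where nothing ties a duplicate to one, the p-values measure only the spread between these duplicates, which may be technical. Experiment 2, used below for comparison, had the same cells, pre-activation and 24 h of treatment, with 100 nM and 10 nM in place of the lower doses. The 21h10 libraries held 37530462 and 53873087 reads on genes and the mIL-21 libraries 38337640 and 44453094, within a range of 36824740 to 94070730 over experiment 1.

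Interleukin-21 is a cytokine of helper and NKT cells that acts on T, B and NK cells through the IL-21 receptor, which pairs with the common gamma chain shared by the receptors for IL-2, IL-4, IL-7, IL-9 and IL-15. The receptor uses the kinases JAK1 and JAK3 and signals through transcription factors of the STAT family, chiefly STAT3. In CD8+ T cells IL-21 is known for supporting effector function, and in CD4+ T cells for its part in type 17 differentiation. The question of the comparison is which genes the designed and the native cytokine set to different levels when their concentrations are equal. The study displayed a small set of effector and resting-state genes in a heat map; the lists below are made of other genes.

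The cells carried the markers of their label. The 9 markers of CD8 T cells summed to 4152 and 3909 CPM (the standard library-size-scaled read count, with sizes adjusted by edgeR's TMM method) in the 21h10 duplicates and to 4251 and 4460 CPM in the mIL-21 duplicates, without overlap, and 6 of the 9 were past the threshold used below. Myeloid markers summed to 101.1 and 106.6 CPM in the 21h10 duplicates, to 80.1 and 80.4 CPM in the mIL-21 duplicates and to 4.74 and 5.0 CPM in unstimulated cells. Itgam (81.1 and 76.1 against 58.1 and 56.6 CPM) and Cd68 (25.4 and 24.8 against 22.2 and 23.3 CPM) gave nearly all of it, while Lyz2, S100a8 and S100a9 were at 0 in all 4 libraries. Summed NK cell markers were 21.4 and 21.7 CPM with 21h10 and 36.3 and 36.4 with mIL-21, of which Eomes, which T cells also express, made up 20.7 to 21.0 and 35 to 35.1 CPM. B cell markers summed to 15.8 and 15.2 CPM in the 21h10 duplicates and 12.7 and 12.9 CPM in the mIL-21 duplicates, with 2 of 6 tested past the threshold. The gamma-delta T cell markers summed to 1.62 to 1.84 CPM over the 4 libraries and erythroid markers to no more than 0.202 CPM, with Hbb-bs and Alas2 at 0. Markers of CD4 and regulatory T cells lay at 122.4 and 124 CPM after 21h10 and 161.6 and 162.5 CPM after mIL-21. Of these, 1 of 4 tested was past the threshold, Ikzf2, which is also counted among the effector transcription factors below. The part of other cell types in the results below was not tested. In bulk RNA, fewer cells of a type and less RNA per cell cannot be told apart.

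At 1 nM, the quasi-likelihood test of edgeR, with p-values adjusted by the Benjamini-Hochberg method, called 5271 of 13974 tested genes, or 37.7%, at an adjusted p under 0.05. Of these, 2735 (19.6%) were higher and 2536 (18.1%) lower with 21h10. When the mapped reads, without TMM, set the library size, the split became 2038 higher and 2918 lower, so that higher genes made up 41.1% of calls in place of 51.9%. With DESeq2 it was 3037 and 1923. Duplicates were close, with a biological coefficient of variation of 4.32%, and for 5227 of the called genes the 21h10 and mIL-21 duplicates did not overlap, which was also so for 8662 of all 13974 tested genes and is common with 2 libraries against 2. Most differences were small. The median absolute log2 fold change of called genes was 0.37, and only 354 higher and 268 lower genes differed by 1 or more on the log2 scale. A list of genes therefore stands apart only where its share of called members departs from these background shares. The lists below were chosen with earlier results of these data known. Of their 853 tested members 398 were called, a larger share than over all genes, so an excess in a list is a description and not a test.

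Across 36 gene lists with 853 tested members, the type 17 programme, the ATF4 response with amino acid transport, cytosolic tRNA synthetases, and chaperones of the endoplasmic reticulum (ER) had the highest shares of members higher with 21h10, from 67.9% to 90.0%. Type I interferon-stimulated genes (66.7%), T cell receptor signalling (61.9%), MHC class II (50%) and integrins (47.1%) had the highest shares of members lower with 21h10. Cytoplasmic ribosomal proteins, oxidative phosphorylation and replication-dependent histones had shares at or below the background in both directions.

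**Figure D1:**
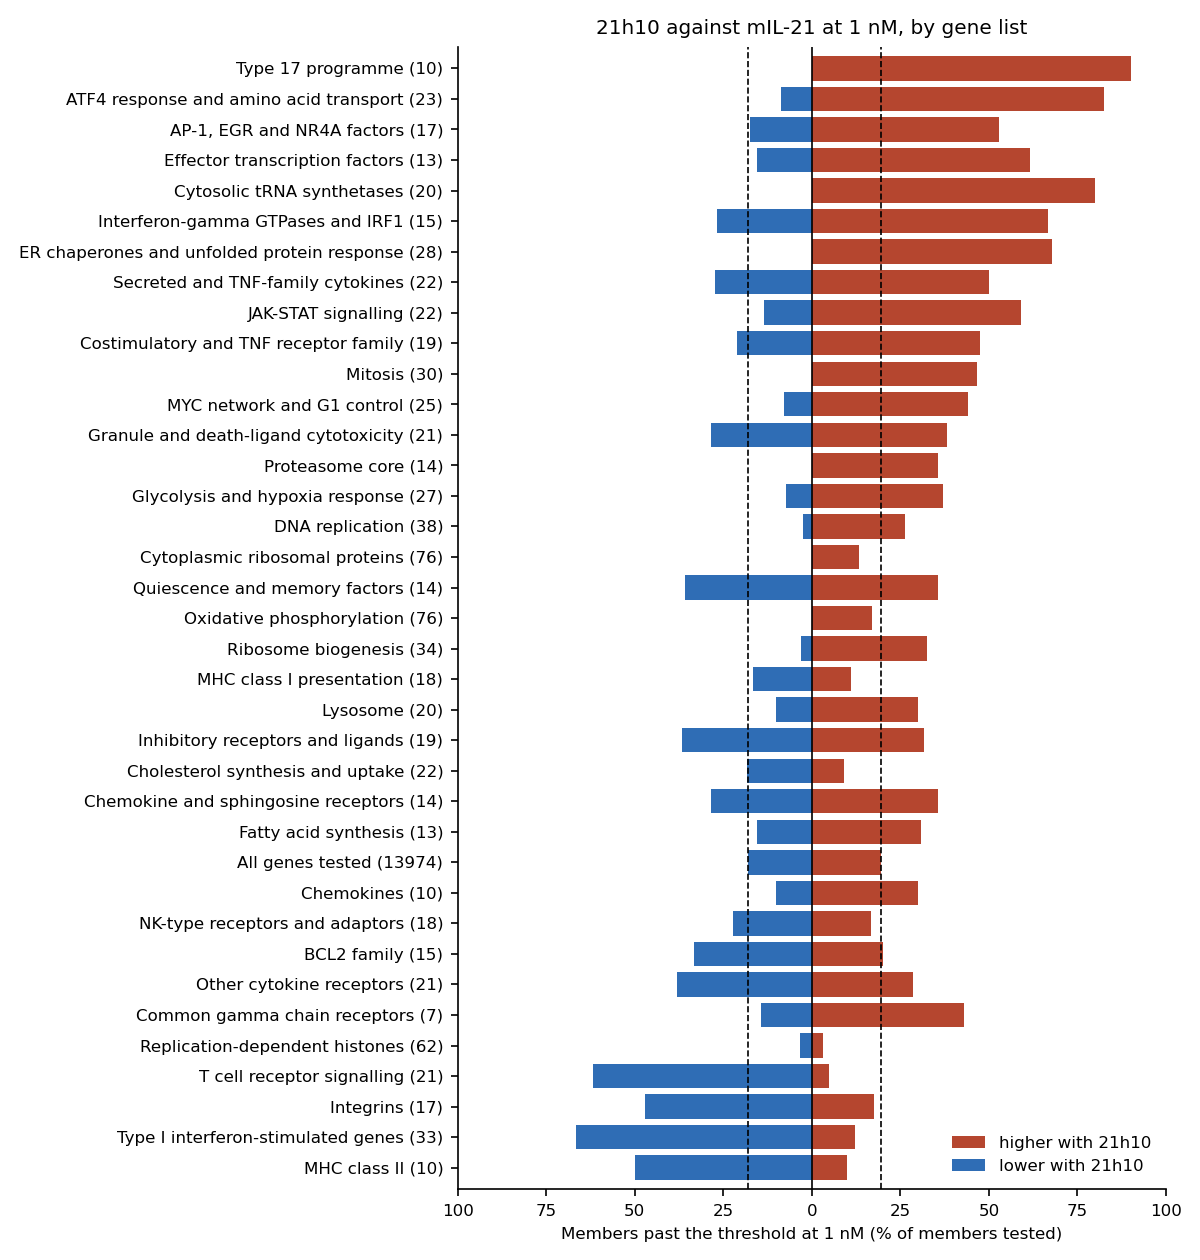
Percent of tested members past the threshold at 1 nM in each gene list (number tested in parentheses), with members higher with 21h10 to the right in red and members lower to the left in blue. Lists are ordered by their median log2 fold change and dashed lines mark the shares over all genes, 19.6% higher and 18.1% lower; the type 17 programme reaches 90.0% on the right and type I interferon-stimulated genes 66.7% on the left.

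The type 17 programme groups the transcription factors, receptors and cytokines that define IL-17-producing T cells. Of its 10 tested members, 9 were higher with 21h10 and none was lower, with a median log2 fold change of 2.31 against -0.01 over all genes. Ahr, a ligand-activated factor needed for IL-22, measured 23.2 and 23.9 CPM in the 21h10 duplicates, 11.9 and 10.6 CPM in the mIL-21 duplicates and 2.49 and 2.16 CPM without cytokine. Its 21h10 values lay above those of all other libraries of experiment 1 (log2 fold change 1.07 ± 0.09 (SE), n = 2 per group, edgeR adjusted p = 3.48e-08). The nuclear receptor Rora, another factor of these cells, differed less (0.63 ± 0.11), at 12.9 and 14.8 against 8.00 and 9.87 CPM.

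Among the receptors of this programme, Il1r1, the signalling receptor for IL-1, reached 26.6 and 25.4 CPM with 21h10 against 2.28 and 2.56 CPM with mIL-21 (chr1:40222480-40316201, log2 fold change 3.42 ± 0.13, edgeR adjusted p = 2.87e-12). The receptor for IL-23, Il23r, stood at 6.96 and 7.24 against 1.33 and 0.967 CPM, and the mIL-21 duplicates here were near the unstimulated level of 1.08 and 1.09 CPM. Both receptors had 21h10 duplicates clear of every other library of experiment 1.

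The cytokines of the programme were of low abundance. Il17a measured 3.89 and 4.11 CPM with 21h10 against 0.537 and 0.427 CPM with mIL-21 (log2 fold change 3.06 ± 0.24, edgeR adjusted p = 2.07e-08). Il17f had 114 reads over both 21h10 duplicates and 7 over both mIL-21 duplicates, a ratio, adjusted for library size, of 15.8 with a 95% counting interval of 7.41 to 40.1. Il22, an epithelial repair cytokine, stayed below 1 CPM in all libraries, at 0.979 and 0.890 against 0.205 and 0.157 CPM, and its transcript is matched over its whole length by the copy Iltifb, so that its reads could be split between them. Il24, an IL-10 family cytokine, was more abundant, at 30.7 and 34.1 against 7.18 and 7.24 CPM. The chemokine receptor Ccr6 did not pass the test, at 0.0198 to 0.140 CPM with 21h10 and 0 to 0.179 CPM with mIL-21.

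At 100 pM the same list had 6 members higher and none lower, with a median of 0.97. At 100 nM in experiment 2 it had 1 higher and 1 lower of 7 tested, with a median of -0.17. Over all genes at 100 nM, 4.02% were higher and 4.52% lower, against 19.6% and 18.1% at 1 nM. The 100 nM counts of the lists below also stand next to these smaller shares. The 1 nM difference exceeded the 100 pM difference for Il1r1 by 2.09 on the log2 scale (edgeR adjusted p of the difference 1e-04), for Il17a by 2.12 (0.0130) and for Il23r by 1.65 (0.00801). For Il24 the excess was 0.36, with an adjusted p of 0.217.

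Cytokines outside this programme moved in both directions. Among 22 tested secreted and TNF-family cytokines, 11 were higher and 6 lower, with Il17a, Il17f, Il22 and Il24 also counted here. Il10, the anti-inflammatory cytokine, measured 78.7 and 76.4 CPM with 21h10, against 12 and 12.3 CPM with mIL-21 and 0.465 and 0.491 CPM without cytokine. That is 6.38-fold between the cytokines (log2 fold change 2.67 ± 0.09, edgeR adjusted p = 3.66e-13), next to a log2 fold change of 3.05 at 100 pM and 0.68 at 100 nM. The IL-6 family cytokines Lif (99.2 and 92.9 against 31.0 and 33.2 CPM) and Osm (115 and 102 against 41.6 and 40.3 CPM) were both higher with 21h10, by 1.58 and 1.41 on the log2 scale. The lower members were modest in size, among them Il13 (-0.68), Tnf (-0.53) and the growth factor Csf2 (-0.44).

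Of 10 tested chemokines, 3 were higher and 1 lower. Ccl4, an inflammatory chemokine, rose to 28.2 and 25 CPM with 21h10 against 5.47 and 4.99 CPM with mIL-21, and Ccl9 measured 27.0 and 27.1 against 9.31 and 10.7 CPM. Xcl1, which attracts cross-presenting dendritic cells, was the lower one, at 0.419 and 0.554 against 1.94 and 2.49 CPM. Both cytokines held it far under the 18.1 and 18.6 CPM of unstimulated cells. The interferon-induced Cxcl10 also passed the test (2.15 ± 0.66, on 19 against 4 reads), but at 0.178 to 0.280 CPM with 21h10 against 0.0256 to 0.0674 CPM with mIL-21, it was close to absent next to 14.3 and 15.3 CPM without cytokine.

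**Figure D2:**
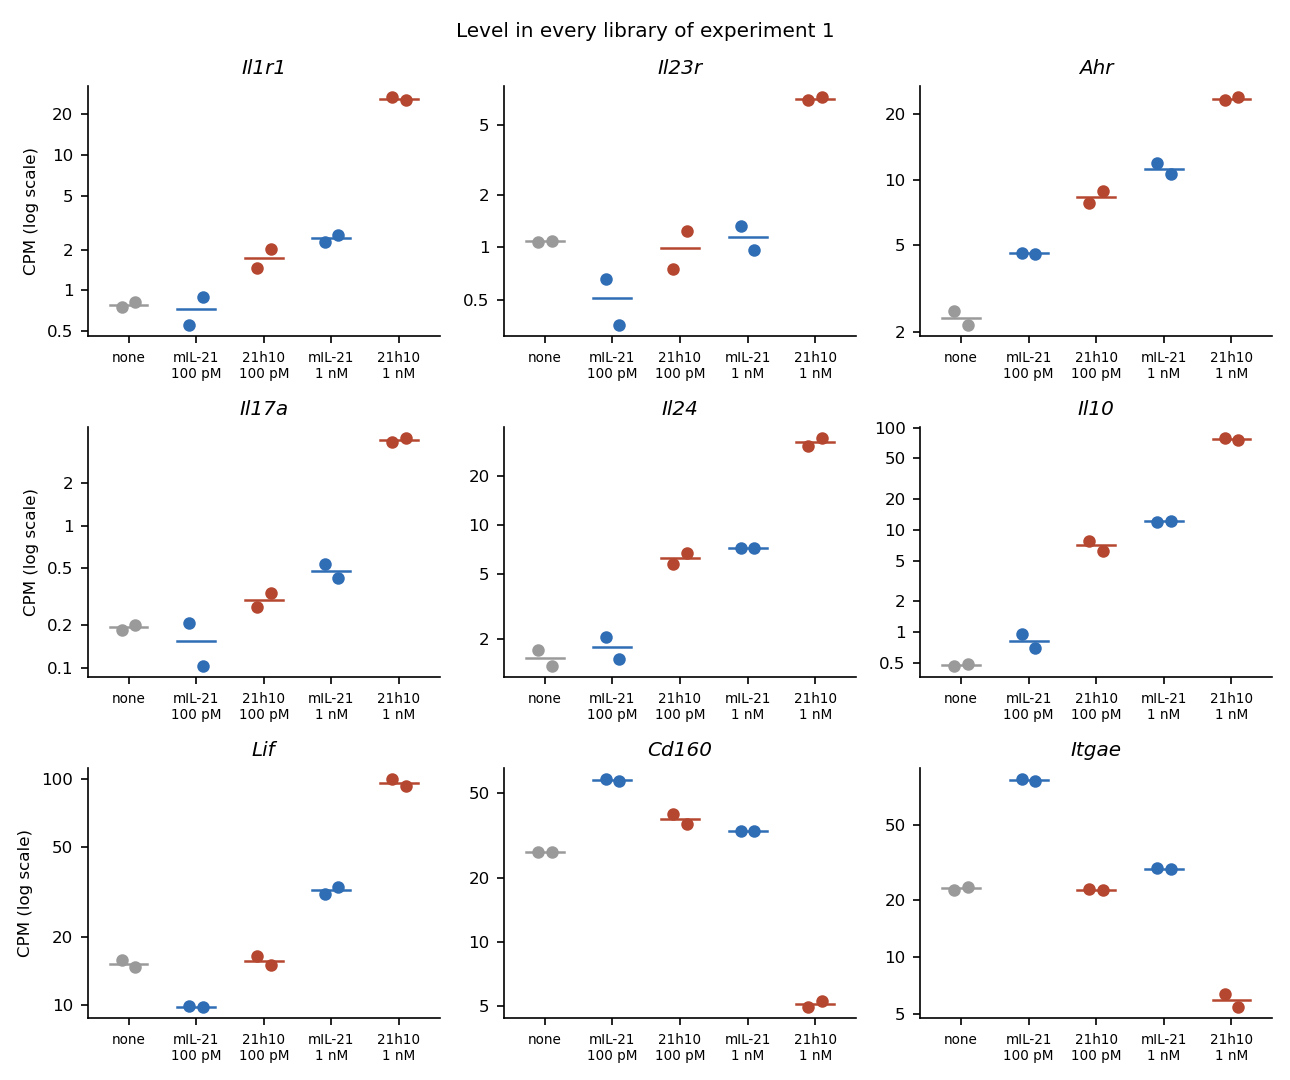
CPM (log scale) of 9 genes in each library of experiment 1, with points for the duplicates and lines for the group means, by cytokine and dose. In every panel the 21h10 duplicates at 1 nM sit apart from all other libraries: above them for Il1r1, Il23r, Ahr, Il17a, Il24, Il10 and Lif, and below them for Cd160 and Itgae. The 9 genes were picked for display with these results known, so how common such separation is cannot be read from the figure.

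The 8 largest rises among genes with at least 1 RPKM (reads per kilobase of transcript, scaled to mapped reads) in the higher group were led by genes that unstimulated cells hardly expressed. Enpp2 (chr15:54838901-54952789) encodes autotaxin, the secreted enzyme that makes lysophosphatidic acid, and measured 93.9 and 110.3 CPM with 21h10 against 5.55 and 5.15 CPM with mIL-21, a 19.1-fold difference (log2 fold change 4.26 ± 0.10, edgeR adjusted p = 5.51e-15). Il13ra1 (chrX:36112108-36171262), a receptor chain for IL-13 and IL-4, measured 42.9 and 53.1 against 3.58 and 3.93 CPM. Unstimulated cells had 0.130 CPM or less of both.

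Moxd1 (chr10:24223517-24302783), a monooxygenase-like gene, stood at 44.7 and 42.5 against 3.12 and 3.19 CPM, a log2 fold change of 3.79. At 100 pM its log2 fold change was 7.97. The reads behind the 100 pM value are not given here, so the sizes at the 2 doses are not ranked. Timp1 (chrX:20870166-20874737), an inhibitor of matrix metalloproteinases, reached 22.7 and 23.8 against 1.48 and 2.07 CPM. Gfra1 (chr19:58235581-58455946), the GDNF receptor chain, reached 7.52 and 8.74 against 0.844 and 0.809 CPM. In each of these 5 genes and in Il1r1, the sixth, the lower 21h10 duplicate was several times the higher mIL-21 duplicate. The remaining 2 rest on few mIL-21 reads. Ly6f (chr15:75268372-75272237) had 104 against 5 reads, a ratio of 20.1 (95% counting interval 8.36 to 63.3), and Mir675 (chr7:142577064-142577147) had 34 against 3 reads, a ratio of 11 (3.45 to 55.8). Mir675 lies wholly within H19, whose reads cannot be told apart from it.

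The 8 largest falls were led by surface molecules. Cd160 (chr3:96798763-96829351), a receptor of activated CD8 T and NK cells that binds HVEM, measured 4.95 and 5.28 CPM with 21h10, against 33.2 and 33.1 CPM with mIL-21 and 26.5 CPM in both unstimulated duplicates (log2 fold change -2.69 ± 0.08, edgeR adjusted p = 1.41e-13). Itgae (chr11:73090505-73147449), the CD103 integrin chain that binds E-cadherin on epithelium, measured 6.38 and 5.46 against 29.6 and 29.1 CPM. The mIL-21 duplicates were above the unstimulated cells for both genes, and the 21h10 duplicates below them.

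Itgax, the CD11c integrin chain (chr7:128129526-128150657), measured 2.35 and 2.75 against 10.7 and 10.5 CPM, and Clec12a, an inhibitory lectin receptor (chr6:129349783-129365303), 1.43 and 1.62 against 7.70 and 7.10 CPM. Fam26f (chr10:34126067-34127972) measured 0.951 and 0.633 against 3.04 and 4.0 CPM, and the tight junction gene Cldn10 (chr14:118787871-118874525) 0.671 and 0.554 against 2.68 and 2.34 CPM. Xcl1, described above, belongs here with a log2 fold change of -2.16. The eighth, Snord57, is a small nucleolar RNA within Nop56 with 4 against 21 reads, an mIL-21 over 21h10 ratio of 5.42 (95% counting interval 1.83 to 21.7).

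Interferon-linked genes separated the cytokines in opposite ways. Type I interferon-stimulated genes, the antiviral set driven by the type I interferon receptor, were mostly lower with 21h10: 22 of 33 tested members were lower and 4 higher, with a median log2 fold change of -0.40. The IFN-γ-inducible GTPases, which attack the membranes around intracellular pathogens, were mostly higher: of 15 tested members, Irf1 included, 10 were higher and 4 lower, with a median of 0.34. Within this list the Tgtp copies, Irgm1 and Iigp1 were lower and the other called members higher.

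A set of 4 promoter stretches of these GTPases are shown because they carry the binding letters of STAT factors and of the interferon regulatory factors side by side, although 2 of their genes were higher and 2 lower with 21h10. They are from RefSeq promoter windows (GRCm38.p6, 250 bases before to 50 after the transcript start), 5′ to 3′ on the strand of the gene. Capitals mark matches to the gamma-activated sequence (GAS, TTCNNNGAA) and to the core of the interferon-stimulated response element (ISRE, GAAANNGAA).
Igtp, chr11:58199476-58199555, plus strand: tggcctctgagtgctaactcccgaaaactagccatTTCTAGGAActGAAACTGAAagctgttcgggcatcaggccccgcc
Irgm2, chr11:58214867-58214956, plus strand: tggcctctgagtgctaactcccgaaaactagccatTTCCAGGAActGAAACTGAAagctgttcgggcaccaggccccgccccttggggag
Tgtp1, chr11:48992280-48992369, minus strand: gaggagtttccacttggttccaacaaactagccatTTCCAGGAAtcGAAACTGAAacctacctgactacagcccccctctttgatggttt
Tgtp2, chr11:49064239-49064328, minus strand: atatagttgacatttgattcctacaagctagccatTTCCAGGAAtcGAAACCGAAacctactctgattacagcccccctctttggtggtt

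These 4 genes are related copies, so their promoters are not independent examples. Searched on both strands, 7 of the 10 GTPase-list windows held a GAS match (70.0%) and 9 held an ISRE core (90.0%), next to 8.37% and 8.74% of the 10254 tested genes with a window. In the type I list, 12 of 24 windows held an ISRE core (50%) and 7 a GAS (29.2%). Over all genes called higher, GAS and ISRE core shares were 9.39% and 8.76%, and over genes called lower 7.68% and 9.50%. A match is a description of letters in this window, not a measured binding site.

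Igtp, next to the first of these sequences, measured 255 and 254 CPM with 21h10, against 153 and 151 CPM with mIL-21 and 401 and 397 CPM without cytokine (log2 fold change 0.75 ± 0.04, edgeR adjusted p = 3.60e-10). Irgm2 measured 64.6 and 62.9 against 51.4 and 51.5 CPM. The Tgtp copies went the other way, with Tgtp1 at 29.0 and 27.2 against 42.7 and 34.7 CPM and Tgtp2 at 26.4 and 28.3 against 43.1 and 39.2 CPM. Unstimulated cells held 188 to 197 CPM of either. Tgtp1 and Tgtp2 match each other over 99.6% or more of their length, so their reads could be split and count as little more than 1 observation. Irgm1 (-0.33) and Iigp1 (-0.68) were the other 2 lower members.

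The guanylate-binding proteins (Gbp) made up most of the higher members. Gbp6 measured 257 and 303 against 134.1 and 118 CPM (1.15 ± 0.07), although 97.4% of its transcript is matched by Gbp10. Gbp4 (221 and 241 against 131 and 115 CPM), Gbp8 (125 and 140.9 against 83.5 and 72.9 CPM) and Gbp2 (216 and 227 against 148 and 141.6 CPM) were also above the mIL-21 duplicates without overlap. Gbp7 did not pass the test (0.00). Irf1, the transcription factor of this list, differed by 0.18.

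Among the type I genes, the GTPase Mx1 measured 4.08 and 4.35 CPM with 21h10, against 11 and 8.88 CPM with mIL-21 and 37.5 and 34.7 CPM without cytokine (log2 fold change -1.23 ± 0.11, edgeR adjusted p = 1.55e-07). Cmpk2 (4.53 and 4.25 against 9.95 and 8.95 CPM) and Irf7, the factor that amplifies type I interferon (10.3 and 9.49 against 20.8 and 20.3 CPM), had log2 fold changes of -1.11 and -1.06. Ifi44 had the largest log2 fold change of the list, -2.29, at 0.224 and 0.237 against 1.33 and 0.967 CPM. The nucleotide phosphatase Samhd1 was the clearest of the 4 higher members, at 1194 and 1270.5 against 832 and 773 CPM. Isg15 and Ifit1 did not pass the test.

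Promoter stretches of 4 lower type I genes are given for comparison with the GTPases, with capitals marking GAS and ISRE core matches on either strand.
Rsad2, chr12:26456528-26456606, minus strand: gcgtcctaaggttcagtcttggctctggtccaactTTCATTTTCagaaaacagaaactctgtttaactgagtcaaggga
Oas3, chr5:120777685-120777769, minus strand: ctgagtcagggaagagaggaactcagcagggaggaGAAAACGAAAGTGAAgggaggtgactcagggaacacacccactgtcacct
Bst2, chr8:71537553-71537643, minus strand: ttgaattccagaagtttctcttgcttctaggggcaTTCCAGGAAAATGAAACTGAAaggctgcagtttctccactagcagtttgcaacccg
Ifih1, chr2:62646324-62646402, minus strand: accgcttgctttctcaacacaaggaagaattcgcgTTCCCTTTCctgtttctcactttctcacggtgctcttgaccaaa

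In Oas3 a pair of overlapping ISRE cores forms the run of capitals, and in Bst2 a GAS match overlaps such a pair; the other 2 stretches hold 1 ISRE core each. Rsad2, the antiviral enzyme viperin, measured 2.40 and 2.99 CPM with 21h10 against 5.04 and 4.99 CPM with mIL-21 (-0.88). The RNA sensors and tethering factors differed less: Ifih1 12.5 and 11.6 against 18.8 and 17.2 CPM (-0.58), Oas3 87.0 and 83.8 against 116 and 117 CPM (-0.45), and Bst2 55.5 and 56.3 against 64.0 and 65.3 CPM (-0.21). All 4 had lower values in both 21h10 duplicates than in either mIL-21 duplicate. They were picked as lower genes, and duplicates did not overlap for 5227 of 5271 called genes and 8662 of 13974 tested genes.

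The dose at which the cytokines were compared changed the GTPases more than the type I genes. At 100 pM the type I list again leaned lower, with 25 lower and 2 higher members and a median of -0.47, while the GTPase list turned to 9 lower and 3 higher with a median of -0.36. Igtp at 100 pM measured 128 and 127 CPM with 21h10 against 213 and 213 CPM with mIL-21. Its log2 fold change of -0.74 there and 0.75 at 1 nM differed by 1.49 (edgeR adjusted p of the difference 7.17e-11). The corresponding difference was 1.24 for Irgm2 and 1.51 for Gbp6. At 100 nM in experiment 2, 2 GTPase-list members were higher and 1 lower, and 1 type I gene was higher and 3 lower. Over all genes, 4.02% were higher and 4.52% lower there.

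**Figure D3:**
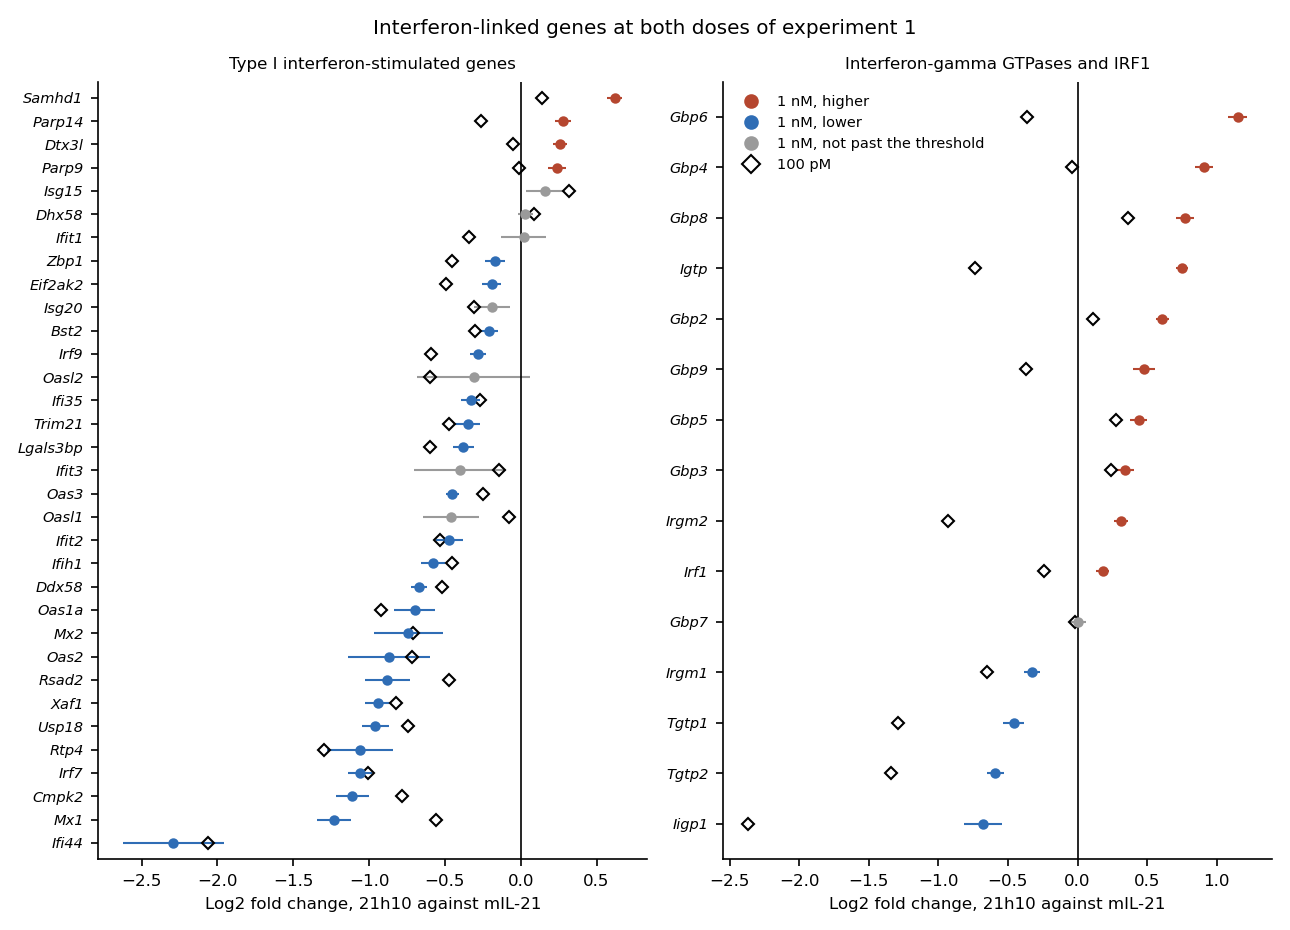
Log2 fold change (21h10 relative to mIL-21) for type I interferon-stimulated genes (left) and IFN-γ-inducible GTPases with Irf1 (right). Circles with SE bars are 1 nM, red where higher, blue where lower and grey where not past the threshold, and open diamonds are 100 pM; on the right, circles of Igtp (0.75) and Gbp6 (1.15) lie above 0 and their diamonds (-0.74 and -0.36) below.

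Genes of amino acid supply were higher with 21h10 nearly throughout. ATF4 is the transcription factor that cells use to restore amino acid uptake and synthesis, and of 23 tested members of its response with amino acid transport, 19 were higher and 2 (Slc1a5 and Ddit4) lower, with a median log2 fold change of 0.49. Cytosolic tRNA synthetases, the enzymes that charge tRNAs with their amino acids, had 16 of 20 higher and none lower, with a median of 0.41. Both lists were also mostly higher at 100 pM, with 21 and 12 members higher and 1 lower in each. At 100 nM, 6 of the first and none of the second were higher, next to 4.02% of all genes.

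For these lists 5 promoters are shown because their windows hold the CCAAT-enhancer binding protein and ATF response element (CARE, TGATGNAA), the element that ATF4 binds. The element was picked with the results in view. Capitals mark the match on either strand.
Asns, chr6:7693210-7693267, minus strand: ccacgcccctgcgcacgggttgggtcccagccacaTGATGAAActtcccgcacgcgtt
Slc7a11, chr3:50443618-50443714, minus strand: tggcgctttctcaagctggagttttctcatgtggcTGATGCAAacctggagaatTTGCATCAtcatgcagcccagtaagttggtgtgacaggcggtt
Aars, chr8:111033695-111033772, plus strand: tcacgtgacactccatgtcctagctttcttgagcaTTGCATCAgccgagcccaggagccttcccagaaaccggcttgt
Gars, chr6:55037936-55038000, plus strand: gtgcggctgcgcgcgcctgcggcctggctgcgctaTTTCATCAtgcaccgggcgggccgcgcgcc
Tars, chr15:11399659-11399708, minus strand: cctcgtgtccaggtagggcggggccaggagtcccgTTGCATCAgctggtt

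The element was in 6 of 21 windows of the ATF4 list (28.6%), in 5 of 12 of the synthetases (41.7%) and in 2.81% of all tested genes with a window. Over all genes called higher its share was 3.70%, and over genes called lower 3.79%, so it did not differ by direction. Asns, asparagine synthetase, measured 219 and 226 CPM with 21h10, against 131 and 130.5 CPM with mIL-21 and 125 and 126 CPM without cytokine (log2 fold change 0.77 ± 0.04, edgeR adjusted p = 3.51e-10). Its mIL-21 duplicates lay near the unstimulated level. Slc7a11, the cystine importer, was rare, at 0.755 and 1.11 against 0.435 and 0.405 CPM. Among the synthetases shown, Aars (339 and 339.8 against 222 and 239.7 CPM), Tars (144 and 149 against 100.6 and 97.2 CPM) and Gars (399 and 410.1 against 322 and 323 CPM) were higher by 0.56, 0.57 and 0.33 on the log2 scale.

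The largest member of the list was the leucine importer. Slc7a5 measured 711 and 663 CPM with 21h10, against 250.3 and 278 CPM with mIL-21 and 192.4 and 191 CPM without cytokine, a 2.60-fold difference (1.38 ± 0.05, edgeR adjusted p = 2.87e-12). Its partner chain Slc3a2 measured 552 and 546 against 235 and 252 CPM. Atf4 transcripts stood at 393 and 415 against 259.8 and 275 CPM, its target Ddit3 at 85.8 and 100.4 against 60.0 and 63.4 CPM, and the glutathione-degrading enzyme Chac1 at 4.78 and 4.29 against 2.74 and 2.27 CPM. Mitochondrial one-carbon enzymes Mthfd2 (0.52) and Shmt2 (0.53) were higher as well. Yars, tyrosyl-tRNA synthetase, had the largest synthetase difference together with Tars, at 216 and 207.4 against 142.5 and 144 CPM. Those not past the test were Kars, Hars, Farsa and Vars, between -0.08 and 0.02.

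ER chaperones fold proteins bound for the surface or for secretion, and the unfolded protein response raises them on demand. Of 28 tested members, 19 were higher with 21h10 and none lower, with a median of 0.30. Hspa5 (BiP), the main ER chaperone, measured 536 and 604 CPM with 21h10 against 294 and 271 CPM with mIL-21 (1.01 ± 0.06, edgeR adjusted p = 3.45e-10), both under the 811 and 793 CPM of unstimulated cells. The sensor Atf6 reached 215 and 227 against 122 and 116 CPM and the factor Xbp1 177 and 166 against 104 and 103 CPM. Hsp90b1 (0.64) and Calr (0.51) followed the same direction. At 100 pM, 18 members were higher and none lower, but the differences were smaller for Hspa5 (0.20, with a difference between doses of 0.81 and adjusted p = 2.39e-06) and Xbp1 (0.22). At 100 nM, 2 were higher and 1 lower, next to 4.02% and 4.52% of all genes.

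**Figure D4:**
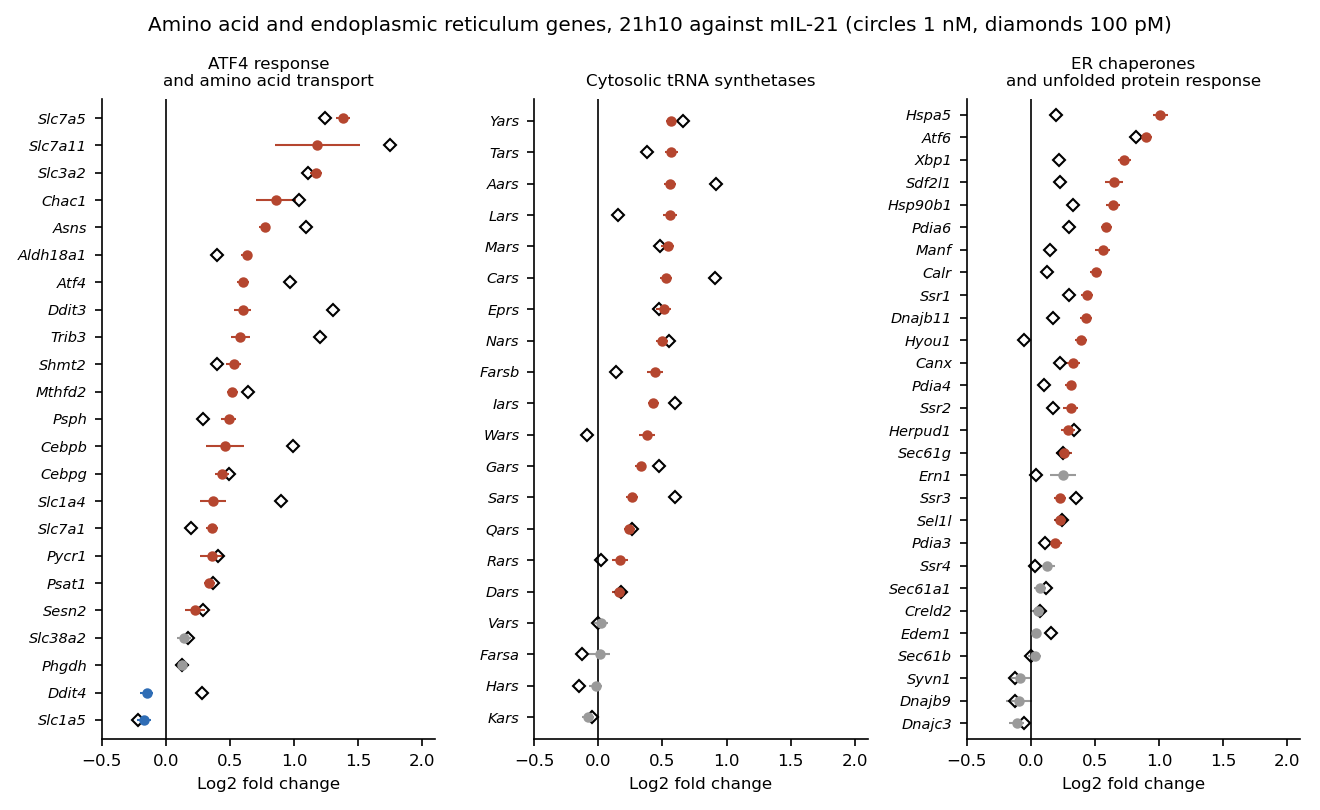
Log2 fold change (21h10 relative to mIL-21) for the ATF4 response with amino acid transport, cytosolic tRNA synthetases and ER chaperones with the unfolded protein response. Circles with SE bars are 1 nM (red higher, blue lower, grey not past the threshold) and open diamonds 100 pM; nearly all circles lie right of 0, up to 1.38 for Slc7a5, and the Hspa5 diamond (0.20) lies well left of its circle (1.01).

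Transcript levels of cytokine receptors and of JAK-STAT genes also differed between the 2 treatments. Il21r, the receptor itself, measured 336 and 317 CPM with 21h10, against 232 and 237 CPM with mIL-21 and 125 and 121 CPM without cytokine (0.48 ± 0.05, edgeR adjusted p = 3.22e-07). Its partner Il2rg was slightly lower with 21h10, at 446 and 426 against 479 and 475 CPM (-0.13, adjusted p = 0.0282), with 30.5% of its exons shared with the same-strand gene Gm20489. Of 7 tested common gamma chain receptor genes, 3 were higher and 1 lower. Il2ra, the high-affinity IL-2 receptor chain, measured 2585 and 2587 against 1508 and 1452 CPM (0.81), and Il4ra 388 and 359.9 against 301 and 318 CPM (0.27).

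Among 22 tested JAK-STAT genes, 13 were higher and 3 lower, with a median of 0.27. Stat5a, the STAT used by IL-2, had the largest difference, at 414 and 386 CPM with 21h10 against 169 and 173 CPM with mIL-21 (1.23 ± 0.05, edgeR adjusted p = 3.44e-12), well over that of Stat5b (0.30). Stat3 stood at 719.7 and 749 against 578 and 577 CPM (0.35). Per length, Stat3 was more abundant than Stat5a with 21h10 (131 and 82.2 RPKM), while with mIL-21 Stat5a was at 36.2 RPKM. Ptpn2, the phosphatase that removes the activating phosphate from JAK1 and STATs, measured 412 and 461 against 228 and 224 CPM. Stat4, the STAT of IL-12, was the largest of the lower members, at 149 and 154 against 253 and 226 CPM, and Tyk2 was lower by less (-0.32). Jak1 (-0.07) and Jak3 (0.03) did not pass the test.

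Other cytokine receptors split, with 6 of 21 higher and 8 lower. Beside Il1r1 and Il23r, the IL-6 receptor chain Il6ra was higher, at 7.75 and 8.42 against 2.74 and 3.19 CPM, and its log2 fold change of 1.45 contrasted with -1.57 at 100 nM in experiment 2. Il12rb2 (0.60) and Il6st (0.54) were higher too, although 40.0% of the Il12rb2 exons overlap Serbp1 on the other strand. The lower members included the receptor chains of both interferon types, Ifngr1 (-0.38), Ifngr2 (-0.68), Ifnar1 (-0.17) and Ifnar2 (-0.26), together with Il10ra, at 53.0 and 53.8 against 91.6 and 90.5 CPM (-0.77).

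Effector transcription factors leaned higher, with 8 of 13 higher, 2 lower and a median of 0.46. Irf4, a factor whose level follows the strength of T cell receptor signals, measured 301 and 311 CPM with 21h10, against 164 and 165 CPM with mIL-21 and 293 and 286 CPM without cytokine (0.90 ± 0.05, edgeR adjusted p = 2.23e-10). The 21h10 duplicates lay just above the unstimulated ones and the mIL-21 duplicates far below. Its partner Batf reached 101.4 and 97.4 against 55.9 and 61.1 CPM. Maf, an activator of Il10, measured 5.82 and 6.54 against 3.27 and 3.30 CPM and Nfil3 409 and 385 against 224 and 237 CPM. Eomes was lower, at 21.0 and 20.7 against 35 and 35.1 CPM, and so was Ikzf2 (-0.65).

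AP-1, EGR and NR4A factors, the early response of T cell activation, had 9 of 17 higher and 3 lower. Jun measured 74.4 and 72.7 against 36.0 and 38.9 CPM (0.97), while Egr1 (2.85 and 2.15 against 5.01 and 4.59 CPM) and Nr4a3 (1.62 and 1.13 against 2.38 CPM in both duplicates) were lower. Quiescence and memory factors were evenly split, with 5 higher and 5 lower of 14. Id3 was the largest, at 0.643 and 0.929 against 2.12 and 2.29 CPM, followed by Tox (5.70 and 6.80 against 11 and 10.5 CPM) and Klf3 (4.22 and 4.03 against 6.44 and 6.11 CPM), all lower. The higher ones were small, up to 0.34 for Myb.

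T cell receptor signalling genes were mostly lower with 21h10: 13 of 21 were lower and 1 was higher, with a median of -0.19. The summed CD8 T cell markers, which share members with this list, were also lower. Rasgrp1, which couples the receptor to Ras, measured 277 and 299 against 477 and 433 CPM (-0.66 ± 0.05, edgeR adjusted p = 3.05e-08). The adaptor Lcp2 (SLP-76) measured 154 and 159 against 222 and 222 CPM. Cd8b1 (-0.39) and Cd3e (-0.31) were lower, and Cd247, the zeta chain, was the higher member (0.32), although 56.4% of its exons overlap Pou2f1 on the other strand. With only the 2 compared groups in the fit, 7 members were lower and 1 higher. At 100 pM, 7 were lower and 2 higher, and at 100 nM the only call was higher, Rasgrp1 with 0.64.

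Of 17 tested integrins, 8 were lower and 3 higher, led by the Itgae and Itgax chains above. Itgb3 measured 96.0 and 99.0 against 144 and 145 CPM, and the LFA-1 chain Itgal differed by -0.39. The list was also more often lower than higher at 100 nM in experiment 2 (8 lower, 1 higher), where Itgae and Itgax had log2 fold changes of -1.81 and -1.65. Itgam, the CD11b chain, was higher by 0.45 at 1 nM and 1.84 at 100 pM but lower by 1.08 at 100 nM (log2 fold change -1.08), and 68.7% of its exons are shared with the gene Gm49368.

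Inhibitory receptors and their ligands had 6 of 19 higher and 7 lower. Beyond Cd160, Pdcd1 (PD-1) measured 15.6 and 12.9 against 30.1 and 30.0 CPM (-1.09), and Cd101 and Cd96 were lower by similar amounts (-1.06 and -0.92). Entpd1 (CD39), the enzyme that starts the breakdown of extracellular ATP, was higher, at 138.9 and 144 against 47.1 and 46.9 CPM with 6.35 and 6.70 CPM without cytokine (1.59 ± 0.05, edgeR adjusted p = 5.13e-13). Lilrb4 was higher too, at 44.0 and 44.1 against 20.1 and 16.9 CPM, with its whole transcript matched by the copy Lilr4b, and Lag3 stood at 613 and 573 against 386 and 427 CPM.

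Costimulatory and TNF receptor family genes had 9 of 19 higher and 4 lower. Tnfrsf25 (DR3) measured 4.36 and 3.26 against 0.920 and 1.17 CPM and Icos 268 and 284 against 169 and 152 CPM. Slamf6 (6.21 and 5.14 against 17.1 and 15.3 CPM) and Cd226, DNAM-1 (44.7 and 48.9 against 117 and 96.9 CPM), were lower. NK-type receptors had 3 of 18 higher and 4 lower, near the background. Klrk1 (NKG2D) was higher at 201.7 and 215 against 149 and 132 CPM, and its adaptor Hcst was lower, at 4.70 and 4.55 against 5.29 and 7.51 CPM. Klrc1 was higher (0.50), with 79.8% of its transcript matched by Klrc2.

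Chemokine and sphingosine receptors had 5 of 14 higher and 4 lower. Cxcr3, the receptor for interferon-induced chemokines, measured 9.34 and 7.99 against 21.1 and 21.8 CPM (-1.32). Ccr4 measured 33.9 and 35.4 against 15.5 and 17.5 CPM, both under the 69.5 and 71.6 CPM of unstimulated cells, and its log2 fold change was 1.07 at 1 nM, -0.35 at 100 pM and 1.19 at 100 nM.

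Granule and death-ligand genes other than the study's heat-map genes were mixed, with 8 of 21 higher and 6 lower. Gzma was abundant, at 1614 and 1586 against 1017 and 1039 CPM (0.64), and the vesicle fusion protein Stx11 measured 111 and 121 against 71.9 and 69.3 CPM. Gzme was rare, at 1.76 and 1.5 against 0.818 and 0.764 CPM. Serpinb9, the inhibitor that shields killer cells from granzyme B, was lower, at 91.1 and 91.6 against 151 and 143.4 CPM. In the BCL2 family, 3 of 15 were higher and 5 lower. Bcl2l11 (BIM), which promotes apoptosis, measured 99.2 and 100.1 against 64.7 and 65.2 CPM, while Bcl2a1a (-0.58), Bcl2a1b (-0.58) and Bcl2a1d (-0.69) were lower but match each other over 94.9% or more of their length and cannot be counted separately.

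MHC class II genes, with 5 of 10 lower and 1 higher (none higher without 21h10 duplicate 1 or mIL-21 duplicate 1), were mostly rare: H2-Oa measured 15.9 and 13.8 against 24.8 and 25.5 CPM, H2-Ob 8.17 and 7.99 against 11.9 and 11.2 CPM and H2-DMb2 1.34 and 1.28 against 2.56 and 2.74 CPM. Of the H2-DMb2 transcript, 75.9% is matched by H2-DMb1 of the same list, so reads could be split between them. Summed B cell markers, of a cell type that expresses class II, were higher with 21h10, and their part in this result was not tested. MHC class I presentation had 2 of 18 higher and 3 lower. Psme2 was higher (0.39), with 82.5% of it matched by Psme2b, and Tap2 (-0.29) and Nlrc5 (-0.23), the activator of class I genes, were lower.

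Growth and cell division lists had small medians, from 0.06 to 0.14. Their shares of members higher were above the 19.6% of all genes, from 26.3% for DNA replication to 46.7% for mitosis. Mitosis genes had 14 of 30 higher and none lower, with a median of 0.14, led by Cenpf (165 and 209.6 against 151 and 128 CPM), Bub1 (0.35) and Mki67 (1244 and 1478 against 1162 and 999.8 CPM). DNA replication had 10 of 38 higher and 1 lower, and ribosome biogenesis 11 of 34 higher and 1 lower. Rfc3, a clamp loader subunit, measured 56.4 and 55.1 against 37.0 and 36.2 CPM, and the nucleolar genes Rrp1b (279.9 and 273 against 136.7 and 145 CPM) and Rrp12 (34.3 and 33.0 against 18.7 and 19.3 CPM) had the largest differences of their list. Myc measured 248 and 231 against 200.1 and 208.4 CPM (0.23), within 11 of 25 higher and 2 lower in its network. Cdk6 was higher there, at 175 and 186 against 83.9 and 89.8 CPM, as was Mxd1 (0.75), and the MYC antagonist Mxd4 was lower, at 8.75 and 8.30 against 15.8 and 19.7 CPM. With mapped reads as library size, DNA replication stood at 4 higher and 4 lower and mitosis at 8 higher.

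Metabolic lists varied. Shares of members higher were 37.0% for glycolysis, 30.8% for fatty acid synthesis, 30.0% for the lysosome and 9.09% for cholesterol synthesis, next to 19.6% of all genes. Shares lower were 7.41%, 15.4%, 10.0% and 18.2%, next to 18.1%. Glycolysis and the hypoxia response had 10 of 27 higher and 2 lower, with Ero1l (2631 and 3098 against 2104 and 1968 CPM), Hif1a (0.43) and the glucose importer Slc2a1 (0.36) largest. Cholesterol synthesis had 2 of 22 higher and 4 lower, with Stard4 at 0.33 and Dhcr7 at -0.22. Fatty acid synthesis had 4 of 13 higher and 2 lower, and Elovl6 was the clear case, at 201.5 and 216 against 113 and 111 CPM, ahead of Me1 (0.31) and Fads2 (0.20). In the lysosome list, 6 of 20 were higher and 2 lower, with Lamp2 (276 and 294 against 146 and 132 CPM) and Ctsb (579 and 536 against 337 and 335 CPM) higher and Lipa lower (-0.37).

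Oxidative phosphorylation had 13 of 76 higher (17.1%) and none lower, with Cycs (0.52), Uqcrq (0.48) and Atp5f1 (0.32) largest, and cytoplasmic ribosomal proteins had 10 of 76 higher (13.2%) and none lower, with Rps25 (0.28), Rpl30 (0.19) and Rpl36a (0.19). Both counts depended on scaling and on single libraries. With RLE factors they were 20 and 27, and with mapped reads as library size 7 and 2. For the first, 7 were higher without mIL-21 duplicate 1 and 34 without mIL-21 duplicate 2. For the second, 21 and 2 were higher without 21h10 duplicates 1 and 2, and 3 and 40 without mIL-21 duplicates 1 and 2. The proteasome core had 5 of 14 higher and none lower, up to 0.34 for Psma3, with Psma2 at 0.17 and Psma7 at 0.16. Replication-dependent histones had 2 of 62 higher and 2 lower, and the higher Hist1h2ap (0.92) and Hist1h2ao (0.90) match each other over 93.8% or more of their length; Hist1h2bc (-0.48) was among the lower.

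Between doses, the sizes and sometimes the signs changed. At 100 pM, 2745 genes (19.6%) were higher and 2653 (19.0%) lower with 21h10. Of the 2937 genes called at both doses, 2701 had the same direction and 236 opposite directions, of which 109 were higher at 1 nM and lower at 100 pM and 127 the reverse. Beside the GTPases, Myc was among the former, with log2 fold changes of 0.23 at 1 nM and -0.51 at 100 pM. DNA replication went from 10 higher and 1 lower at 1 nM to none higher and 22 lower at 100 pM, and ribosome biogenesis from 11 and 1 to 1 higher and 22 lower. Cholesterol synthesis, split at 1 nM, had 20 of 22 higher and none lower at 100 pM, and fatty acid synthesis 10 of 13 higher and none lower. Cd160 differed by -0.60 at 100 pM, at 39.9 and 36.0 against 58.2 and 56.9 CPM, far less than at 1 nM (difference -2.09, edgeR adjusted p = 6.17e-10).

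In experiment 2, a separate set of 10 libraries, the cytokines were compared at 100 nM, and 553 of 13772 genes (4.02%) were higher and 622 (4.52%) lower with 21h10. The biological coefficient of variation was 8.8% there. Among the 13248 genes tested in both experiments, 174 were higher in both, which is 6.59% of the 2641 higher at 1 nM and 32.2% of the 541 higher at 100 nM. Another 261 were lower in both, or 10.4% of 2503 and 42.0% of 621. Opposite calls numbered 147 among genes higher at 1 nM and 100 among genes lower at 1 nM. Without 1 library of experiment 2 the 435 genes shared in direction became 166 to 236. Cd160 (-0.78), Itgae, Itgax, Clec12a (-2.78) and Cxcr3 (-0.80) were lower, and Slc7a5 (0.50), Entpd1 (0.74), Il2ra (0.64), Nfil3 (1.37) and Il24 (3.69) higher, in both experiments. Il1r1 (-0.57), Ccl4 (-0.67) and Osm (-0.83) were higher with 21h10 at 1 nM and lower at 100 nM, while Eomes (2.32) and H2-DMb2 (3.39) were lower at 1 nM and higher at 100 nM.

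**Figure D5:**
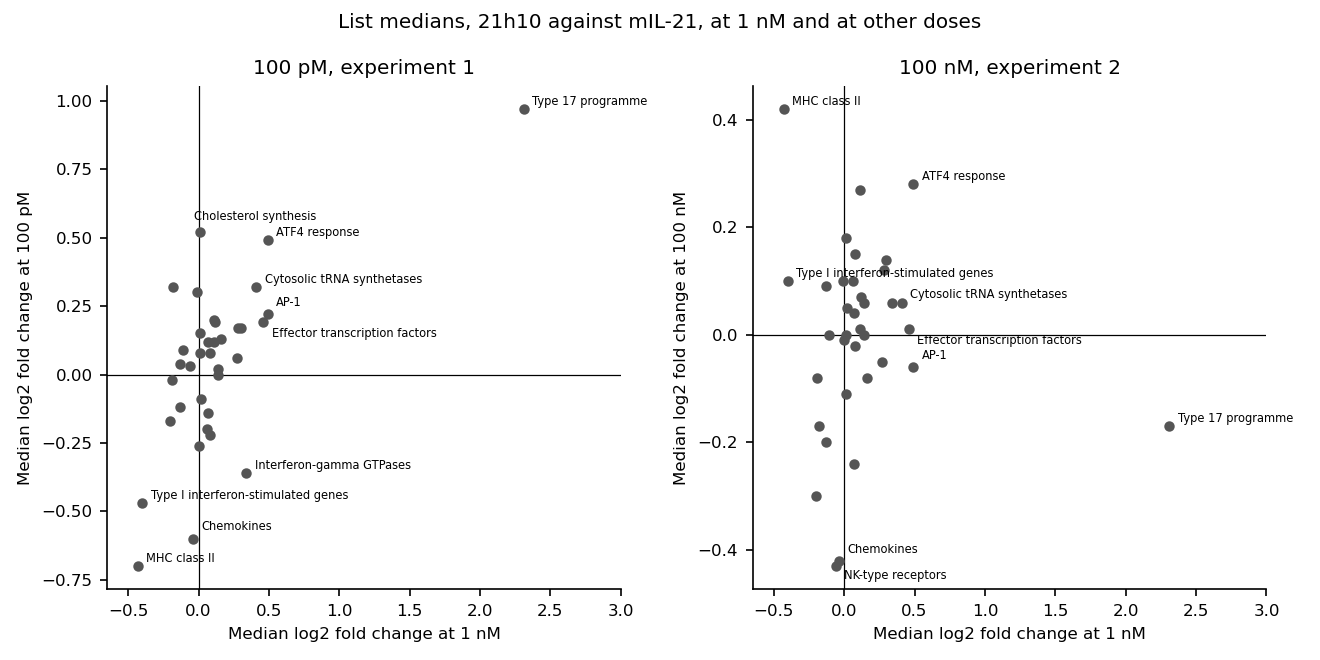
Median log2 fold change (21h10 relative to mIL-21) over the tested members of each gene list, at 1 nM (horizontal) against 100 pM in experiment 1 (left) and 100 nM in experiment 2 (right). The type 17 programme lies far right at 2.31 with 0.97 at 100 pM and -0.17 at 100 nM, and the GTPase list lies right of 0 but below it at 100 pM.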

How the data were processed

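Per the labels and the study's methods, the authors mapped NovaSeq reads of KAPA mRNA HyperPrep libraries to mm10/GRCm38 with TopHat 2.0.11 (Bowtie2 2.2.6, SAMtools 0.1.8 and bedtools 2.25.0 are also in the submitters' processing notes) and deposited, per transcript, counts of reads on exons and RPKM values normalized by the authors to transcript length and mapped reads. Counting tool, strand setting and annotation version are not given in the sources used here, so antisense and overlapping genes may share reads. Molecular identifiers are not mentioned in the study's bulk RNA-seq methods, and counting intervals cover counting error only.

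From the 31682 transcripts, the longest per symbol was kept (23992 symbols, of which 4343 had several transcripts and for 618 another transcript had more reads). The deposited counts of the 10 libraries of experiment 1 were filtered (edgeR filterByExpr, minimum count 10, minimum total 15), TMM-scaled and fitted with edgeR 4.0.16 (glmQLFit and glmQLFTest, R 4.3.3) with group as the only term; experiment 2 was fitted separately. Genes with a Benjamini-Hochberg adjusted p under 0.05 over all genes were called; two-sided. SE is the absolute log2 fold change divided by the square root of F. Replicate numbers were not treated as pairs, since the labels tie them to no shared mouse or batch. Deviations of same-numbered libraries correlated at -0.062 to 0.029 between the groups of experiment 1 and at -0.167 to 0.227 in experiment 2, with 0.126 between its 100 nM groups. RPKM was used only to compare levels between genes and as a minimum of 1 for naming.

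The members and the 36 gene lists (886 genes listed) were chosen with earlier results of these data known. Named are the 8 largest rises and falls among called genes without overlap between groups and with at least 1 RPKM in the higher group, the 3 largest of each list under the same conditions, Il21r, Il2rg, Stat3, Myc and Irf4, and further list members with their values; some genes that meet this rule are counted in the lists and not reported here singly. Copies were found with BLAST 2.17.0 (at least 95% identity over 100 bases) and overlaps from GENCODE; all 422 genes checked were matched. RefSeq windows were found for 16668 of 23992 symbols. E-box (CACGTG) and AP-1 (TGANTCA) letters were also searched, and were in 11.9% and 7.30% of windows of genes called higher, 12.4% and 6.30% of genes called lower and 11.5% and 6.30% of all. Alternatives were DESeq2 1.42.0, RLE factors, no filter, the compared groups alone, a replicate block, the most-read transcript, mapped reads as library size, a log2 limit of 1 and leaving out each library.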

Additional observations from a re-analysis of the deposited data

Results flagged for a closer look

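For 15 genes that met the naming rule or are given with values, the 21h10 against mIL-21 difference passed the test with opposite signs at 1 nM and at 100 pM, and the test of the difference between the doses (edgeR, adjusted over all genes) passed as well. The values below are the log2 fold change at 1 nM minus that at 100 pM. They were 1.51 for Gbp6, 1.49 for Igtp, 1.42 for Ccr4, 1.24 for Irgm2, 0.74 for Myc, 0.69 for Heatr1, 0.53 for Myb, 0.50 for Mcm4, 0.42 for Irf1, 0.41 for Pcna and 0.41 for Il4ra, all higher with 21h10 at 1 nM and lower at 100 pM. The reverse held for Il13 (-1.48), Serpinb9 (-0.88), Dhcr7 (-0.81) and Ddit4 (-0.43). Reads of Gbp6 and Pcna could in part belong to Gbp10 and a Pcna pseudogene, which match or overlap 97.4% and 51.4% of their transcripts.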

How the results depend on the processing

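The count of 5271 called genes was 4960 with DESeq2, 5498 with RLE factors, 5208 without the filter, 3997 with the compared groups alone, 5276 with the most-read transcript and 4956 with mapped reads as library size, and 4000 to 5711 without 1 library; 622 differed by at least 1 on the log2 scale. In each of these fits, no gene called in the main direction was called in the other. Opposite calls at 100 pM and 1 nM, 236 genes or 1.69% of those tested, were 0.949% to 2.25% without 1 library, the low values being 1.01% without 21h10 100 pM duplicate 1, 0.95% without mIL-21 100 pM duplicate 1 and 0.949% without its duplicate 2, and 0.0286% (4 genes) with a log2 limit of 1. Genes shared in direction with 100 nM, 435 or 3.28%, were 1.23% to 3.22% without 1 library, with 1.53% and 1.29% without 21h10 100 nM duplicates 1 and 2 and 1.23% and 1.74% without mIL-21 100 nM duplicates 1 and 2, and 0.166% (22 genes) with a log2 limit of 1. The cause of these changes was not tested, beyond the fewer libraries or the stricter limit itself.

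The replicate block, used although the labels tie the numbers to nothing shared, gave 5025 called genes, 1.5% opposite calls and 3.52% shared with 100 nM. Of 396 list medians recomputed, 379 moved by no more than 0.1. Changes of sign in very small medians not counted, 2 changed sign: granule and death-ligand cytotoxicity from 0.12 to -0.08 without 21h10 1 nM duplicate 2 (range -0.08 to 0.26), and NK-type receptors from -0.06 to 0.13 without mIL-21 1 nM duplicate 1 (range -0.19 to 0.13). For single genes the log2 limit of 1 was not applied, and only the compared libraries were left out in turn. Of 187 genes that met the naming rule or are given with values, 176 were past the threshold. Of these, 155 stayed past it in every alternative fit that included the gene. The other 21 lost the call in at least 1 of them, none with a change of sign: Bst2, Csf2, Cxcl10, Ddit4, Dhcr7, Fads2, Hcst, Hist1h2ao, Hist1h2ap, Hist1h2bc, Ifnar1, Il2rg, Irf1, Nr4a3, Psma2, Psma7, Rpl30, Rpl36a, Slc1a5, Slc7a11 and Snord57. Of the 11 not past it, Cd68 and Farsa passed in at least 1.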
